A study of Mus musculus with 8 samples.

Results

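The neuronal cytoskeleton genes described here are 10 genes chosen by symbol: Tubb3, Nefl, Nefm, Nefh, Ina, Stmn2, Stmn3, Map2, Mapt and Dcx. All 10 have a row among the 24538 gene rows of the deposited counts, and 7 passed the filter on low counts that left 15151 genes for testing. RNA was sequenced from cells sorted from the skin of mice at postnatal day 0, with 2 libraries in each of 4 groups: paw Merkel, paw IFE, back Merkel and back IFE. Every group, IFE included, came from Atoh1-GFP animals, in which green fluorescent protein reports Atoh1, a transcription factor of Merkel cells. Merkel cells were GFP(+), EPCAM(+) and Sca1-negative, and IFE cells, an abbreviation the labels leave unspelled, were GFP(-), EPCAM(+) and SCA1(+). Whether libraries 1 and 2 of a group are separate animals, or pools of animals, is not given in the labels, so the p-values reflect the spread among these 8 libraries alone, and that spread may be technical.

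Merkel cells are epidermal touch receptors that sit against sensory nerve endings. They arise from the epidermis and not from the nervous system, yet they carry many proteins that are otherwise known from neurons. The neuronal cytoskeleton is built from microtubules and intermediate filaments. Microtubules are polymers of alpha- and beta-tubulin, which microtubule-associated proteins stabilise along axons and dendrites and which stathmins take apart by binding free tubulin. Neurofilaments are the intermediate filaments of axons, and they set axon calibre in mature neurons.

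The 10 genes fall into 3 roles. Map2 encodes the microtubule-associated protein of dendrites, Mapt encodes tau, the microtubule-associated protein of axons, and Dcx encodes doublecortin, which binds microtubules in migrating young neurons. Tubb3 encodes the beta-tubulin that is used as a general marker of neurons. Stmn2 and Stmn3 encode stathmins of growing neurites. Nefl, Nefm and Nefh encode the light, medium and heavy neurofilament subunits, and Ina encodes alpha-internexin, which forms filaments in young neurons before the heavier subunits appear. On GRCm38 (mm10) with the GENCODE vM21 annotation, Map2 spans 66175273 to 66442583 of chromosome 1, Mapt 104231390 to 104332090 of chromosome 11, Tubb3 123411424 to 123422015 of chromosome 8, Stmn2 8509360 to 8561606 of chromosome 3 and Ina 47014698 to 47025327 of chromosome 19.

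Promoter sequence upstream of the start was read from the RefSeq table for GRCm38.p6 and held 5 of the 10 genes (Map2, Tubb3, Ina, Stmn3 and Dcx). Printed here are the stretches of 3 genes that were higher in Merkel than in IFE cells at both skin sites, to show the letters near their starts and the motif found in one of them. All 250 bases searched are printed for Ina, but only the 194 for Map2 and 121 for Tubb3 that lie before the annotated transcripts, so the GC values and motif search given after them cover more bases than are shown for these 2 genes. They lie on the plus strand of GRCm38 at chr1:66175079-66175272 for Map2, chr8:123411303-123411423 for Tubb3 and chr19:47014431-47014680 for Ina. Capitals mark CAGCTG, an E-box of the kind bound by basic helix-loop-helix factors.
Map2: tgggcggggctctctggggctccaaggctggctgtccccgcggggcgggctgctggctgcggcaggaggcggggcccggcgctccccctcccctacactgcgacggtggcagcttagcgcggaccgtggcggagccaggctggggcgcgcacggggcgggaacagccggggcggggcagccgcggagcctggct
Tubb3: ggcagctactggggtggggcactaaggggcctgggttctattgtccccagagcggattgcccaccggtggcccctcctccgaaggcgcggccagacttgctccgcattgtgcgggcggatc
Ina: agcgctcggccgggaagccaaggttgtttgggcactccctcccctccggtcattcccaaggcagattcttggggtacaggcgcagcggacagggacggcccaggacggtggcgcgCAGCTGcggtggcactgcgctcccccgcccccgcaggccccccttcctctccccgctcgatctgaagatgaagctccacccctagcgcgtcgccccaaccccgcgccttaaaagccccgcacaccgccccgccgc

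The motifs CAGCTG and CAGATG, the second also as its reverse complement CATCTG, were searched on both strands in the 250 bases before each RefSeq start. CAGCTG is its own reverse complement. The Ina window held CAGCTG at position -135 from the start, and the Stmn3 window held CAGATG at position -75. Over all 32851 windows of the same length, 13% held CAGCTG, 14.4% held CAGATG or CATCTG, and 25.5% held either. The Map2, Tubb3 and Dcx windows held neither, which says only that these letters are not in them. GC content was 81.2% in the Map2 window, 70.8% in the Ina window and 68% in the Tubb3 window, against a median of 52.4% over all windows. It was 48.8% in the Stmn3 window and 41.6% and 44.8% in the windows of 2 Dcx starts. The windows of Map2, Ina and Tubb3 thus lay above the median and those of Stmn3 and Dcx below it. Mapt and Stmn2, also higher in Merkel cells, had no window, and a link of GC content with level was not tested.

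Total counts ran from 11139306 to 26195076 per library, with Merkel libraries at 11139306 to 19300202 and IFE libraries at 17510481 to 26195076. Markers of the labelled cell types were present: 8 Merkel markers (Atoh1, itself part of the sort, with Sox2, Isl1, Insm1, Krt8, Krt18, Krt20 and Piezo2) summed to 2880 to 4041 CPM (read counts scaled for sequencing depth) in Merkel libraries and 8.96 to 18.2 CPM in IFE libraries. The 9 keratinocyte markers summed to 2246 to 8570 CPM in Merkel libraries, highest in paw Merkel library 1, and to 33560 to 48350 CPM in IFE libraries. The library labelled back IFE 2 went against its site label: over 28 Hox genes, which mark position along the body, its log2 CPM correlated with paw IFE libraries 1 and 2 at 0.753 and 0.883 and with back IFE library 1 at -0.0752 (across genes, which are not independent replicates). For genes given with a log2 fold change or bound in back skin, the value without it is added where leaving it out ended the call or moved a called value by over 1.5 times. Counts called over the marker lists and related lists include it, and some of them were lower without it. Over all genes tested, the median difference between libraries 1 and 2 on the log2 scale was 1.00 in paw Merkel and 0.51 in paw IFE cells; back Merkel had 0.74 and back IFE 0.62.

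**Figure D1:**
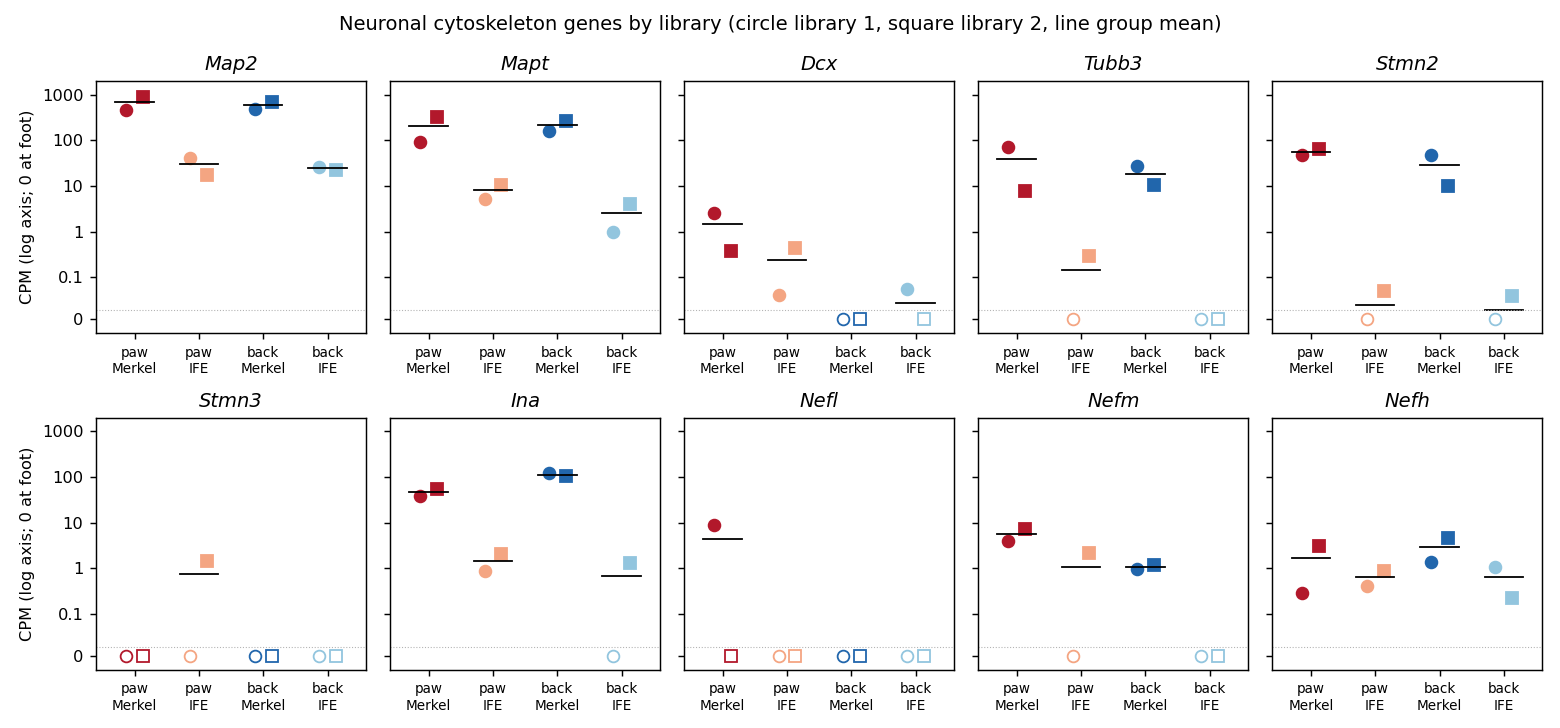
CPM of each of the 10 genes in the 8 libraries (log axis, with 0 drawn at the foot below a dotted line). Circles are library 1, squares library 2 and horizontal lines the mean of a group, and Map2 is the highest of the 10 in every Merkel library.

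Map2 and Mapt, the 2 microtubule-associated proteins of mature neurons, were far higher in Merkel than in IFE cells of both sites. Map2 measured 471 and 909 CPM in paw Merkel libraries 1 and 2, against 41.9 and 17.6 CPM in paw IFE libraries 1 and 2. It measured 499 and 698 CPM in back Merkel libraries, against 26.6 and 22.1 CPM in back IFE libraries. Every Merkel library lay far above every IFE library. The IFE libraries still held 356 to 1028 reads each, so Map2 was detected in every library of both cell types. Its log2 fold change was 4.54 (SE 0.52, adjusted p = 0.000347) in paw and 4.62 (SE 0.52, adjusted p = 0.000196) in back skin, where, as for every adjusted p given here, edgeR's quasi-likelihood F test was adjusted over all genes tested by Benjamini-Hochberg.

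Mapt measured 91.6 and 318 CPM in paw Merkel libraries, against 5.30 and 10.7 CPM in paw IFE libraries. In back skin it measured 165 and 262 CPM in Merkel libraries, against 0.977 and 4.12 CPM in IFE libraries. Merkel and IFE libraries did not overlap at either site, and the paw Merkel libraries differed by 1.79 on the log2 scale, more than the median gene. The log2 fold change of Mapt was 4.68 (SE 0.79, adjusted p = 0.00475) in paw and 6.36 (SE 0.86, adjusted p = 0.000643) in back skin. Leaving out paw Merkel library 1, paw Merkel library 2 or paw IFE library 2 gave 5.29, 3.52 and 5.27 in paw for Mapt, and leaving out back IFE library 1 or 2 gave 5.69 and 7.76 in back skin. Leaving out paw IFE library 1 gave 5.30 for Map2 in paw, and leaving out back IFE library 2 gave 4.49 in back skin.

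Dcx was near the limit of detection. It had 53 and 4 reads in paw Merkel libraries against 1 and 9 in paw IFE libraries, and 0 in both back Merkel libraries against 1 and 0 in back IFE libraries. The groups overlapped in paw, and Dcx did not pass the filter on low counts. A sum of 0 in back Merkel cells allows up to 0.128 CPM, taking a floor of 3 counts over the group; this floor, like all counting limits here, covers counting error only, since amplified reads are not independent molecules.

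Tubb3, the neuronal beta-tubulin, was present in all 4 Merkel libraries and nearly absent from IFE cells. It had 1468 and 84 reads (70.4 and 7.74 CPM) in paw Merkel libraries 1 and 2, against 0 and 6 reads (0 and 0.296 CPM) in paw IFE libraries. In back skin it had 353 and 108 reads (26.9 and 10.6 CPM) in Merkel libraries and 0 reads in both IFE libraries. The paw Merkel libraries stood 3.17 apart on the log2 scale, wider than the median gene, while every Merkel library lay above every IFE library. The log2 fold change in paw was 8.03 (SE 1.74, adjusted p = 0.0229), and in back skin Tubb3 was at least 278-fold higher in Merkel than in IFE cells (adjusted p = 0.00692), with IFE set to the floor of 3 counts over the group. Without back IFE library 2 the bound was 115-fold (adjusted p = 0.0164), since the floor then falls on 1 library.

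The paw value of Tubb3 rested on single libraries: leaving out paw Merkel library 1 gave 5.66 (adjusted p = 0.0480), leaving out paw Merkel library 2 gave 8.90, and leaving out paw IFE library 1 gave 7.01 (adjusted p = 0.0455). Without paw IFE library 2 the remaining paw IFE library is at 0 and the fitted 12.44 depends on the prior count. Fitted to the 4 paw libraries alone, Tubb3 no longer passed the threshold (log2 fold change 8.07, adjusted p = 0.0627).

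Stmn2, a stathmin of growth cones, was present in all 4 Merkel libraries and at 1 read or 0 in every IFE library. It had 1015 and 694 reads (48.6 and 64.0 CPM) in paw Merkel libraries, against 0 and 1 read in paw IFE libraries. In back skin it had 621 and 100 reads (47.2 and 9.77 CPM) in Merkel libraries, against 0 and 1 read in IFE libraries. Every Merkel library lay above every IFE library, and back Merkel library 2 was the lowest of the Merkel libraries. The ratio of summed reads, scaled to library size, of Merkel to IFE cells was 2415 in paw, with an exact 95% counting interval from 433 to 95430, and 1376 in back skin, with an interval from 246 to 54430. Adjusted p was 0.000817 in paw and 0.000753 in back skin. The fitted log2 fold change was 10.89 in paw (9.96 and 12.97 on leaving out paw IFE library 1 or 2). In back skin it was 9.96 (8.40 and 10.70 without back Merkel library 1 or 2, 9.30 and 11.91 without back IFE library 1 or 2). Without IFE library 2 of a site the remaining IFE library is at 0, so the fitted 12.97 and 11.91 depend on the prior count. Without back IFE library 2 the bound in back skin was at least 175-fold, with the floor on 1 library.

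Stmn3, its close relative, was not detected in Merkel cells: 0 reads in all 4 Merkel libraries, against 0 and 30 reads in paw IFE libraries and 0 in both back IFE libraries. Counts of 0 over a group allow up to 0.0946 CPM in paw Merkel and 0.128 CPM in back Merkel cells, so the upper limit for Stmn3 lay far below the level of Stmn2. Stmn3 did not pass the filter on low counts.

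**Figure D2:**
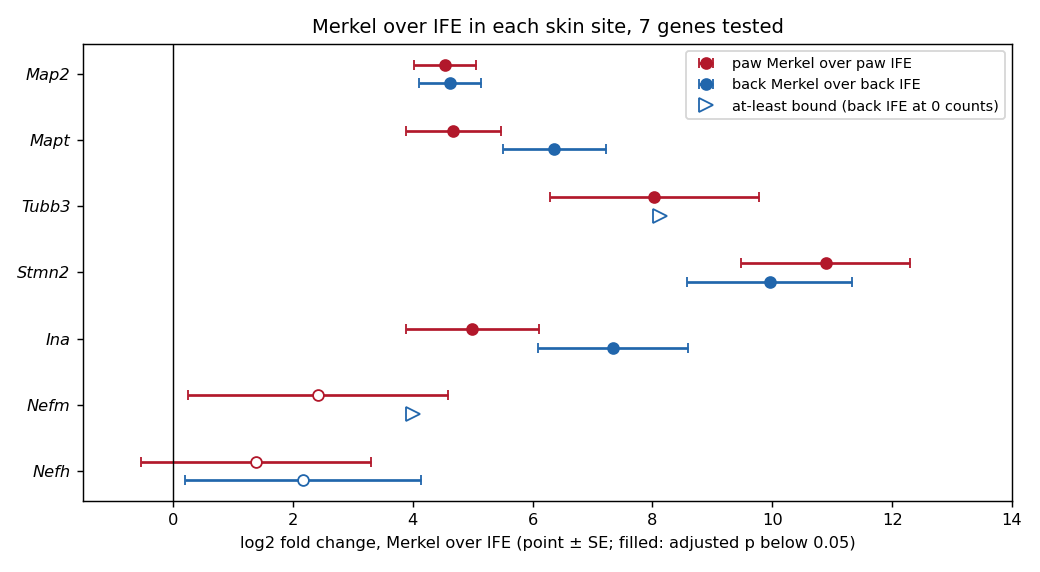
Log2 fold change of Merkel over IFE cells at each skin site for the 7 genes tested, as points with SE bars, filled where adjusted p was below 0.05. Triangles are at-least bounds for Tubb3 and Nefm in back skin, where both IFE libraries had 0 counts, and the 5 genes Map2, Mapt, Tubb3, Stmn2 and Ina passed the threshold at both sites.

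Ina, alpha-internexin, was the one filament gene of the list that was higher in Merkel cells at both sites by the test. It had 809 and 593 reads (38.8 and 54.7 CPM) in paw Merkel libraries, against 21 and 42 reads (0.856 and 2.07 CPM) in paw IFE libraries. In back skin it had 1620 and 1068 reads (123 and 104 CPM) in Merkel libraries, against 0 and 35 reads (0 and 1.34 CPM) in IFE libraries. Merkel and IFE libraries did not overlap, and the back Merkel libraries lay above both paw Merkel libraries. The log2 fold change was 4.996 (SE 1.12, adjusted p = 0.0227) in paw and 7.34 (SE 1.24, adjusted p = 0.00263) in back skin.

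In paw, Ina did not pass the threshold once paw IFE library 1 was left out (4.49, adjusted p = 0.0584), and leaving out paw IFE library 2 gave 5.76. In back skin it was 6.40 without back IFE library 1, and without back IFE library 2 the remaining IFE library is at 0 and the fitted 13.91 depends on the prior count. Of the exonic bases of Ina, 14.1% also belong to the antisense gene Nt5c2, and the strand setting of the counting is not given in the sources used here, so part of its reads may belong to that gene.

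The neurofilament triplet was low throughout. Nefm measured 3.88 and 7.47 CPM in paw Merkel libraries, against 0 and 2.12 CPM in paw IFE libraries, and 0.989 and 1.17 CPM in back Merkel libraries, against 0 CPM in both back IFE libraries. Its Merkel libraries lay above its IFE libraries at each site, but the test did not pass (paw log2 fold change 2.41, SE 2.17, adjusted p = 0.583; back at least 16.1-fold higher, adjusted p = 0.122, which DESeq2 alone of the count tools put past the threshold, at 0.0344). Without back IFE library 2 its bound in back skin was 6.64-fold (adjusted p = 0.321). Nefh measured 0.288 and 3.13 CPM in paw Merkel libraries, against 0.407 and 0.888 CPM in paw IFE libraries, and 1.37 and 4.59 CPM in back Merkel libraries, against 1.09 and 0.229 CPM in back IFE libraries. Its groups overlapped in paw, and adjusted p was 0.744 in paw and 0.489 in back skin (0.805 without back IFE library 2).

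Nefl, the light subunit on which the medium and heavy subunits depend to form filaments, had 183 reads in paw Merkel library 1 and 0 in the 7 other libraries. It did not pass the filter on low counts. Nefl and Nefm lie on opposite strands of chromosome 14 and share 32.8% of the exonic bases of Nefl and 19.2% of those of Nefm, so without the strand setting their reads cannot be told apart over that stretch.

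Counted over the list, 5 of the 10 genes were higher in Merkel cells in paw and the same 5 in back skin, and 0 were lower. The background was 6.21% of all genes tested in paw (4.28% higher and 1.93% lower) and 15.4% in back skin (7.99% higher and 7.45% lower). The 10 genes, like all lists used here, were chosen with earlier results of these data known. Setting their counts beside the background is therefore a description and not a test. Of the other 5 genes, Nefm and Nefh were tested and not past the threshold, and Nefl, Stmn3 and Dcx were not tested. Without back IFE library 2 the count in back skin was again 5.

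Markers of other cell types were read beside these genes. The background for their edgeR counts was 6.21% of all genes tested in paw and 15.4% in back skin. The 14 sensory neuron markers summed to 208 to 741 CPM in Merkel libraries and 9.97 to 29.2 CPM in IFE libraries, and their part in the result was not tested. Most of that sum came from Avil, an actin-binding protein, at 146 to 349 CPM, and Pou4f1, a transcription factor, at 41.9 to 375 CPM in Merkel libraries. Of the 8 tested, 2 were higher in paw Merkel cells and 3 in back Merkel cells by edgeR, and 0 were lower. DESeq2 and limma each called 3 higher and 0 lower in paw, and 3 higher and 1 lower in back skin. The 1 lower was Ntrk2, at 2.13 and 0 CPM in back Merkel against 10.6 and 24.5 CPM in back IFE libraries. Tlx3, a transcription factor of sensory neurons, had 65 and 21 reads in paw Merkel and 117 and 20 in back Merkel libraries, against 0 in all 4 IFE libraries. Scn11a, a sodium channel, had 58 and 61 reads in paw Merkel against 0 and 2 in paw IFE libraries, and Tac1, a neuropeptide precursor, 13 and 70 against 0 in both. In back Merkel libraries Scn11a had 1 and 0 reads and Tac1 had 0 in both. P2rx3 had 23 and 0 reads in paw Merkel against 116 and 36 in paw IFE libraries. In back skin P2rx3 had 3 and 0 reads in Merkel against 16 and 27 in IFE libraries. Prdm12 and Mrgprd were at 0 in all 4 Merkel libraries. The 9 Schwann cell and glia markers summed to 57.4 to 195 CPM in Merkel libraries and 70.5 to 154 CPM in IFE libraries, and of the 6 tested 0 were called at either site by edgeR (unadjusted p was below 0.05 for 0 in paw and 1 in back), 0 by limma, and 1 by DESeq2, Egr2 in back skin. Egr2, a factor of myelinating glia and other cells, measured 71.1 and 18.5 CPM in paw Merkel against 2.73 and 21.3 CPM in paw IFE libraries, and 29.7 and 40.5 CPM in back Merkel against 8.52 and 4.31 CPM in back IFE libraries. Sox10, a defining factor of glia, had 49 and 0 reads in paw Merkel and 13 and 3 in back Merkel libraries, against 0 in all 4 IFE libraries, and Foxd3 and Cdh19 were at 0 in all 4 Merkel libraries. The part of these genes in the result was not tested. The 6 melanocyte markers summed to 17.4 to 23.4 CPM in Merkel libraries and 7.74 to 16.4 CPM in IFE libraries, and the 5 immune markers to 0.0761 to 6.997 CPM in Merkel libraries and 13.3 to 556 CPM in IFE libraries, highest in back IFE library 1. In bulk libraries fewer cells of a type and less RNA per cell cannot be told apart.

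Levels of different genes were compared per length, on the deposited FPKM (fragments scaled to transcript length and sequencing depth). In paw Merkel cells the order of mean FPKM was Map2 67.2 ± 28.0, Mapt 64.4 ± 58.1, Ina 43.4 ± 19.1, Tubb3 40.04 ± 42.2 and Stmn2 33.1 ± 9.86 (SD, n = 2 as for all means here), and neighbours in that order did not differ beyond their spread. In back Merkel cells the order was Ina 96.4 ± 1.64, Map2 67.4 ± 15.4, Mapt 65.2 ± 26.6, Tubb3 20.5 ± 11.3 and Stmn2 16.1 ± 16.4, in which both libraries of Ina lay above those of Map2 and both libraries of Mapt above those of Tubb3. Map2 stood above 95% of the 15715 genes detected in paw Merkel cells and Ina above 96.9% of the 15045 detected in back Merkel cells. The same genes had low FPKM in IFE cells: Map2 3.51 ± 1.66 in paw and 2.55 ± 0.811 in back, Mapt 1.92 ± 0.785 and 0.528 ± 0.382, and Ina 1.01 ± 0.773 and 0.472 ± 0.667. Nefm, Nefh and Dcx had a mean FPKM below 3 in every group, Nefl reached 3.39 ± 4.798 in paw Merkel cells on 1 library alone, and Stmn3 was listed at 0 in every library but paw IFE library 2, at 0.426.

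**Figure D3:**
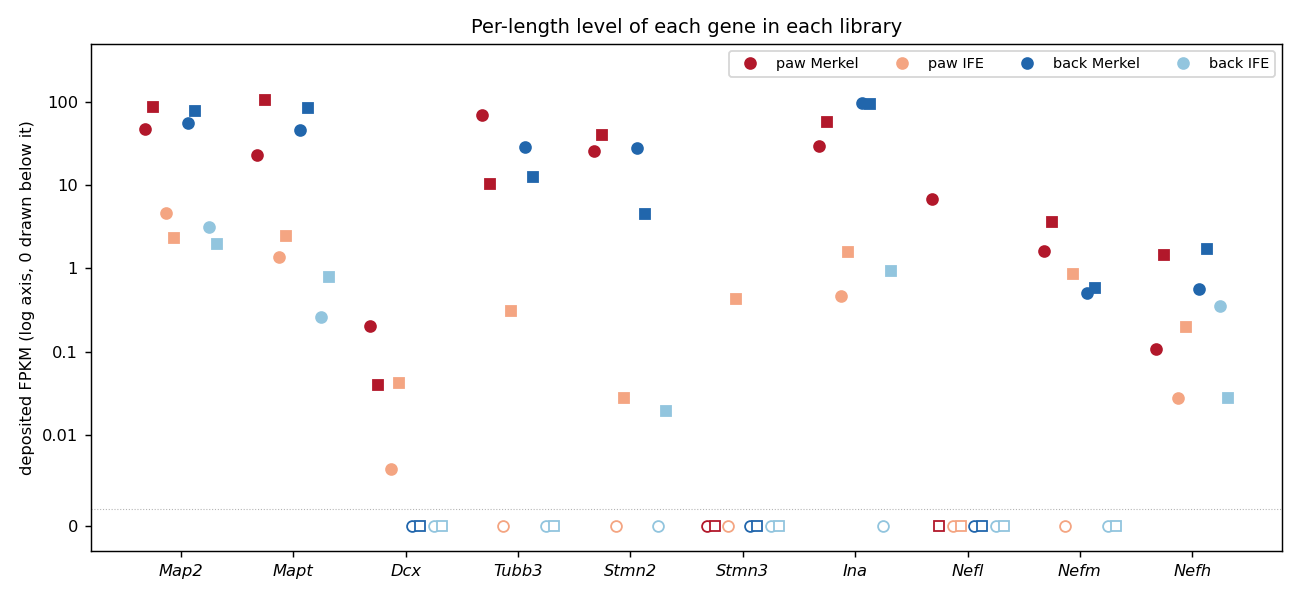
Deposited FPKM of the 10 genes in each library (log axis, 0 drawn below the dotted line), with circles for library 1 and squares for library 2. Map2, Mapt, Tubb3, Stmn2 and Ina lie at 4.52 FPKM or more in every Merkel library, and Stmn3 is listed at 0 in all of them.

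The mix of transcripts was read within gene families. The Merkel and IFE libraries lay apart in the filaments, the stathmins, the beta-tubulins and the microtubule-associated proteins. Among the last, Map2 made up 18.6% and 17.7% in paw Merkel against 2.70% and 1.28% in paw IFE libraries. In back skin it made up 16.9% and 15.65% against 1.78% and 0.972%. Map4 made up 22.9% and 16.3% against 52.7% and 54.4% in paw, and 16.1% and 19.6% against 75.2% and 55.8% in back skin. Of the summed FPKM of 11 non-keratin filament genes, Ina made up 62.2% and 73.9% in paw Merkel libraries, against 1.75% and 5.11% in paw IFE libraries, and 84.4% and 83.0% in back Merkel libraries, against 0% and 1.22% in back IFE libraries. Vim, vimentin, the filament of mesenchymal cells, made up 10.8% and 11.4% in paw Merkel libraries, against 79.4% and 75.9% in paw IFE libraries, and 9.87% and 13.96% in back Merkel libraries, against 97.4% and 91.9% in back IFE libraries. The Merkel and IFE libraries did not overlap in either gene, and keratins, the main filaments of the epidermis, are not in this sum. The 6 fibroblast markers summed to 77.9 to 170.5 CPM in Merkel libraries and 92.6 to 435 CPM in IFE libraries. In paw Merkel cells 1 of the 4 tested was lower and 0 higher, and in back Merkel cells 2 were lower and 1 higher. Dcn, a matrix proteoglycan, measured 5.10 and 3.61 CPM in back Merkel libraries against 60.6 and 181 CPM in back IFE libraries. Col3a1, a collagen, measured 13.4 and 6.36 CPM in paw Merkel libraries against 152 and 185 CPM in paw IFE libraries. In back skin Col3a1 measured 0.2282 and 0.1954 CPM in Merkel libraries against 8.087 and 195.4 CPM in IFE libraries. The 1 higher in back Merkel cells was Col1a2, also a collagen. It measured 164.6 and 73.96 CPM in back Merkel libraries against 21.65 and 28.93 CPM in back IFE libraries. In back IFE libraries 1 and 2 Vim measured 267 and 88.6 CPM. The fibroblast markers summed to 92.6 and 411 CPM there, and the immune markers to 556 and 84.7 CPM. The part of either set of markers in the share of Vim was not tested.

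Of the summed FPKM of the stathmins, Stmn2 made up 40.6% and 77.0% in paw Merkel libraries, against 0% and 0.0669% in paw IFE libraries, and 54.3% and 28.0% in back Merkel libraries, against 0% and 0.0166% in back IFE libraries. Stmn1, the stathmin of dividing cells, made up 98.2% to 100% of the sum in IFE libraries. Of the beta-tubulins, Tubb3 made up 16.2% and 3.86% in paw Merkel libraries and 14.6% and 5.41% in back Merkel libraries, against at most 0.0923% in any IFE library. Tubb5, a beta-tubulin found in most cells, made up a mean of 38.6% in paw Merkel cells against 71.7% in paw IFE cells, and 30.2% in back Merkel cells against 54.8% in back IFE cells. Tubulin genes are near copies of each other in their coding sequence, so reads may be split between them and these shares are uncertain. In the doublecortin family the shares did not lie apart: Dclk2 made up 48.0% and 39.3% in back Merkel libraries, against 88.6% and 0% in back IFE libraries. These IFE shares rest on levels near the floor and say little about the mix. The level of Dclk2 itself was 0.248 and 0 FPKM in back IFE libraries, against 16.9 and 16.1 FPKM in back Merkel libraries.

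**Figure D4:**
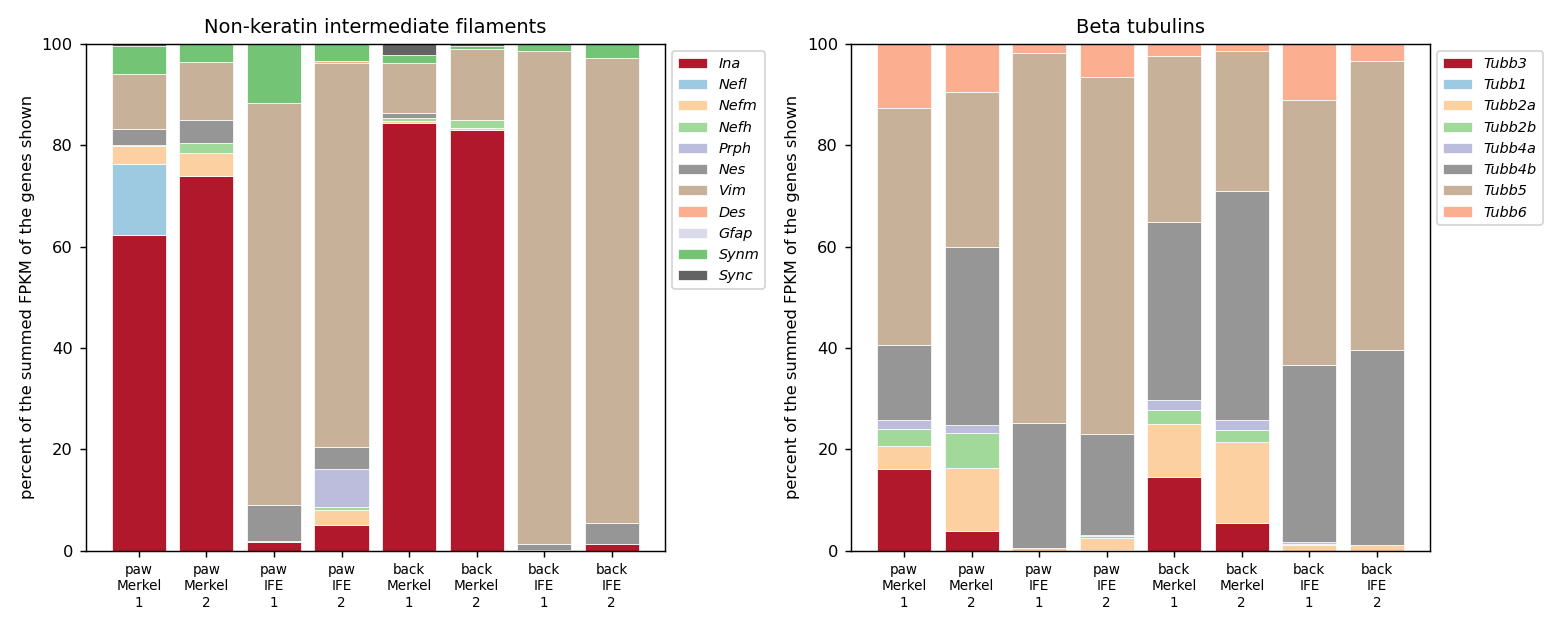
Share of each gene, in percent, in the summed FPKM of 11 non-keratin intermediate filament genes (left) and 8 beta-tubulin genes (right), one bar per library. Ina (red, left) makes up 62.2% to 84.4% of the Merkel bars, and Tubb3 (red, right) 3.86% to 16.2% of them.

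Between skin sites the comparison of paw with back Merkel cells asked whether the list differed with the skin. By edgeR 0 of the 7 genes tested passed the threshold, as did 0 by DESeq2 and 0 by limma, and 0 had an unadjusted p below 0.05; the background was 0.185% of all genes tested. Ina measured 38.8 and 54.7 CPM in paw Merkel libraries, against 123 and 104 CPM in back Merkel libraries, groups that did not overlap (log2 fold change -1.28, SE 0.95, adjusted p = 0.671). Stmn2, at 48.6 and 64.0 CPM in paw against 47.2 and 9.77 CPM in back Merkel libraries, did not overlap either, by a narrow gap (0.98, SE 0.86, adjusted p = 0.742). With 2 libraries a group, a lack of overlap is common without any difference. The share of all genes tested without overlap was not computed for any comparison here. Map2 and Mapt gave 0.21 (SE 0.45) and -0.06 (SE 0.68), the smallest differences of the 7, and Tubb3 gave 1.06 (SE 1.26).

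In IFE cells 0 of the 7 genes differed between paw and back by edgeR, DESeq2 or limma, with a background of 0% of all genes tested (643 genes had an unadjusted p below 0.05). Mapt and Nefm had an unadjusted p below 0.05. Mapt measured 5.30 and 10.7 CPM in paw IFE libraries, against 0.977 and 4.12 CPM in back IFE libraries (log2 fold change 1.63, SE 0.72, adjusted p = 1). This comparison rests on the library labelled back IFE 2: without it 67 genes were called in all and again 0 of the 10, with Mapt at 3.02 (SE 0.82, adjusted p = 0.180) and Ina at adjusted p = 0.0535. Paw IFE library 2 exceeded paw IFE library 1 in 8 of the 10 genes, with Map2 lower and Nefl at 0 in both. The share of all genes higher in paw IFE library 2 was not computed, and Stmn2, Tubb3 and Dcx rest on few reads. The Merkel markers of paw IFE library 2 summed to 18.2 CPM against 14.3 CPM in paw IFE library 1. Krt8 rose from 0.204 to 3.36 CPM and Krt18 from 0 to 2.17 CPM. Piezo2 fell from 12.96 to 10.76 CPM and Sox2 from 0.122 to 0.0494 CPM, and the other markers were higher in library 2. The part of this in the results was not tested.

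The interaction, which asks whether the Merkel over IFE difference in paw differs from that in back skin, called 0 of the 7 genes by edgeR, DESeq2 and limma, and 0 had an unadjusted p below 0.05. The background was 0% of all genes tested, with 1365 at an unadjusted p below 0.05. The estimates were -0.08 (SE 0.63) for Map2, -1.69 (SE 0.98, adjusted p = 0.664) for Mapt and -2.35 (SE 1.39, adjusted p = 0.671) for Ina. Without back IFE library 2, the library that went against its site label, Ina passed the threshold (adjusted p = 0.0383), on a fit in which the remaining back IFE library is at 0. The paw and back contrasts share no library, and the estimates for Map2 in each were 4.54 and 4.62.

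Genes of the same machinery were taken from 7 lists holding 95 genes. The background for their edgeR counts was 4.28% of all genes tested higher and 1.93% lower in paw. In back skin it was 7.99% higher and 7.45% lower, and small counts in a list may lie near these shares. Motors of axonal transport had 5 of 15 tested genes higher and 0 lower in paw, with a list median of 0.94 on the log2 scale beside -0.04 over all genes tested, and 5 higher and 0 lower in back skin, with 1.19 beside -0.06. Kif1a, the kinesin that carries synaptic vesicle precursors, measured 417 and 412 CPM in paw Merkel libraries against 0.489 and 0.592 CPM in paw IFE libraries (log2 fold change 9.57, SE 0.43, adjusted p = 8.41e-07), and 920.3 and 903 CPM in back Merkel libraries against 0.326 and 0.420 CPM in back IFE libraries (11.21, SE 0.46, adjusted p = 4.9e-07). Kif5c and Kif5a, neuronal conventional kinesins, were also higher in Merkel cells, by 8.41 and 4.65 in paw and 8.14 and 10.06 in back skin on the log2 scale (Kif5a 10.71 without back IFE library 2). DESeq2 called 7 motors higher and 0 lower in paw and 8 higher and 1 lower in back skin. Of the genes named from these lists, Kif1a had the largest log2 fold change at each site.

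Growth cone and axon proteins had 4 of 11 tested genes higher and 0 lower in paw (list median 3.99) and 5 higher and 1 lower in back skin (list median 4.75). Crmp1, a collapsin response mediator protein, gave 6.94 (SE 0.77) in paw and 8.57 (SE 0.85) in back skin, and Dpysl5, of the same family, gave 4.18 and 5.18. Rtn1, a reticulon of neurons, gave 7.93 in paw, and Dpysl2 gave 3.99 in back skin. Marcks, a membrane and actin protein, was lower in back Merkel cells, by 2.73 on the log2 scale: it measured 24.8 and 27.8 CPM there, against 98.7 and 250.1 CPM in back IFE libraries. In back skin Crmp1 gave 10.39 and Marcks -1.91 on leaving out back IFE library 2.

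The other stathmins and microtubule-associated proteins had 3 of 24 tested genes higher and 0 lower in paw (list median 0.27) and 7 higher and 2 lower in back skin (list median 0.79). Dclk2, a relative of doublecortin, gave 7.37 (SE 1.16) in paw and 6.84 (SE 1.10) in back skin, and Map9, a microtubule protein of the spindle and cilium, gave 2.95 and 4.43. Mapre2, which binds microtubule ends, gave 1.49 in paw. Stmn1 was lower in back Merkel cells, at 15.7 and 7.43 CPM against 97.9 and 94.8 CPM in back IFE cells, and Map6 was lower too, at 0 and 0.0977 CPM in back Merkel cells against 4.45 and 21.6 CPM in back IFE cells. DESeq2 called 6 higher and 2 lower in paw, and 9 higher and 3 lower in back skin. In back skin Map9 gave 5.98 and Map6 -6.43 once back IFE library 2 was left out.

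Other tubulins had 2 of 16 tested genes higher and 0 lower in paw (list median -0.25), and 1 higher and 5 lower in back skin (list median -2.02). Tuba1a, the alpha-tubulin of postmitotic neurons, was higher in Merkel cells at both sites, at 4.20 (SE 0.52) in paw and 1.90 (SE 0.47) in back skin, and Tuba4a was higher in paw, at 1.83. Tuba1b, Tuba1c and Tubb5, tubulins of dividing and many other cells, were lower in back Merkel cells, with log2 fold changes of -4.25, -3.25 and -3.04. In paw, Tuba1b gave -1.57 (adjusted p = 0.0690), and DESeq2 called 3 tubulins higher and 2 lower there. Without back IFE library 2, Tuba1a did not pass the threshold in back skin (1.56, adjusted p = 0.110). The alpha-tubulins are near copies, so the split of reads between them is uncertain.

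Axonal ankyrins and spectrins had 1 of 8 tested genes higher in paw, Ank2 at 5.08 (adjusted p = 0.0451; limma called 0 and DESeq2 1), and 5 higher in back skin, with 0 lower at either site (list medians 0.84 and 1.93). In back skin Sptb and Sptan1, spectrin subunits of the membrane skeleton, gave 4.76 and 1.43. Non-keratin filaments outside the members had 0 of 4 tested genes past the threshold in paw by edgeR, DESeq2 and limma, with 2 at an unadjusted p below 0.05, and 1 lower in back skin (list medians -0.65 and -2.18): Vim, at 12.3 and 16.7 CPM in back Merkel libraries against 267 and 88.6 CPM in back IFE libraries (log2 fold change -3.62, and -4.21 without back IFE library 2). The kinases of tau and neurofilaments had 0 of 9 tested genes past the threshold at either site by edgeR, with 2 in paw and 1 in back skin at an unadjusted p below 0.05 (list medians 0.11 and -0.29). DESeq2 called 1 of them, Cdk5r2, at each site, and limma called it in back skin only.

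**Figure D5:**
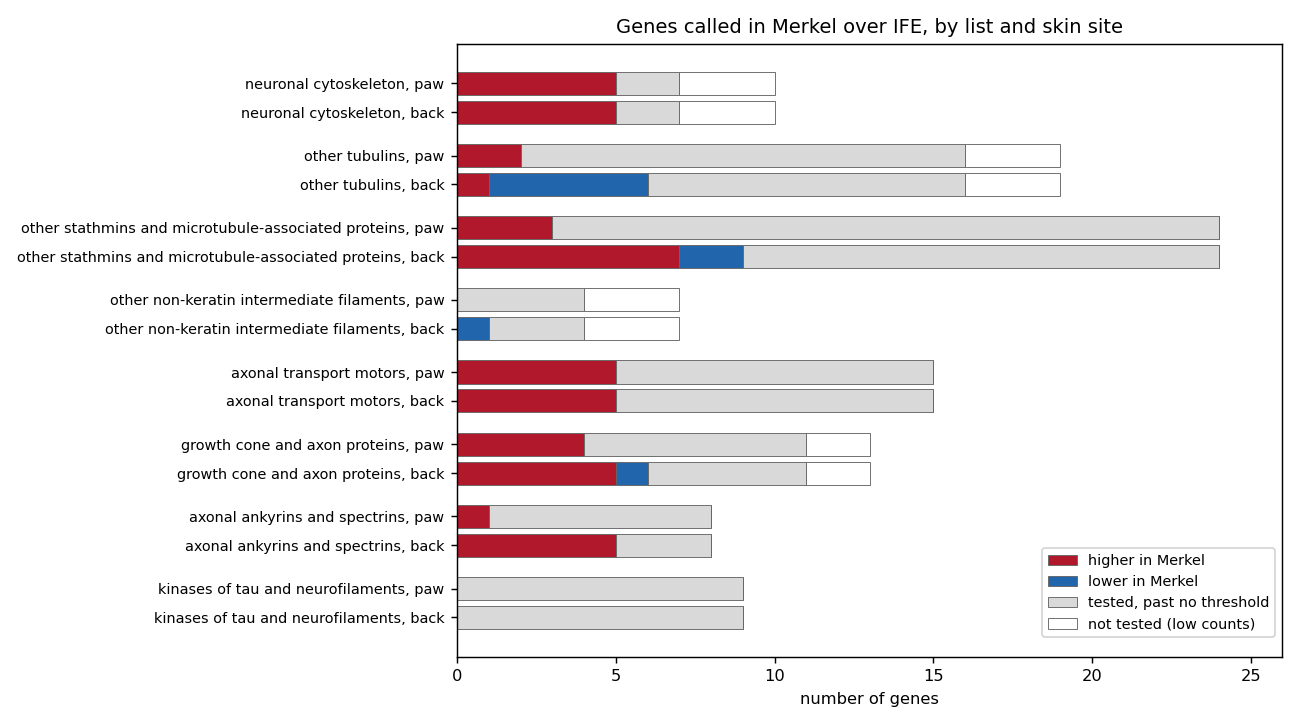
Number of genes called higher (red), called lower (blue), tested but past no threshold (grey) and not tested (white) in Merkel over IFE cells, for the 10 genes and 7 related lists at each site. The neuronal cytoskeleton row holds 5 higher and 0 lower at each site, and other tubulins hold 5 lower in back skin.

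The genes with the profile most like each of the 5 called members were taken by the smallest root mean square difference of centred log2 CPM over the 8 libraries. For Map2 they included Srgap1 and Fyn, at 0.26 and 0.31 on the log2 scale, and Srgap1 was the closest match of any of the 5. For Mapt they were Eya1, Slc4a4 and Espn, at 0.44 to 0.52, and for Ina they included Akap12 and Pdzrn3, at 0.46 and 0.59. For Stmn2 they were Lhx3, Kif5c and Pou4f3, at 0.65 to 0.70, and for Tubb3 Rasd2, Draxin and Pou4f3, at 0.83 to 0.87. Among the members themselves the closest pair was Ina and Mapt, at 0.86, and the farthest was Stmn2 and Map2, at 1.98.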

How the data were processed

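Gene counts, whole numbers per gene, and FPKM values were both deposited by the authors for each of the 8 libraries. Per the submitters' processing notes, TopHat2 2.0.13, Cufflinks 2.2.1, featureCounts of Subread 1.4.6 and DESeq2 1.6.3 were used with mm10; the annotation and strand setting are not given in the sources used here. Per the labels' protocols, 10 ng of total RNA was amplified before library construction.

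Counts were filtered with filterByExpr by group, scaled by TMM and fitted in edgeR 4.0.16 (R 4.3.3) with 1 mean per group over all 8 libraries, leaving 4 residual degrees of freedom. The quasi-likelihood F test was adjusted by Benjamini-Hochberg over 15151 genes, with a threshold of 0.05, and was tested on simulated data. CPM uses the TMM library sizes. SE is the log2 fold change divided by the square root of F. Alternatives used limma 3.58.1 and DESeq2 1.42.0. FPKM was used for levels between genes and, as log2 of FPKM plus 0.1 or 1, in alternatives. Motif and GC values come from RefSeq promoter windows. The 10 genes and all lists were chosen with earlier results of these data known. All 10 are named. From each related list up to 3 genes with the smallest adjusted p per site and 1 going the other way are named. A few genes that these rules select are not reported here.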

Additional observations from a re-analysis of the deposited data

How the results depend on the processing

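The calls of the 5 genes kept their direction under every alternative run. In paw, 3 members were called (Tubb3, Stmn2 and Map2) on log2(FPKM + 0.1) without a filter, where 446 genes were called in all and Ina and Mapt had adjusted p = 0.0751 and 0.0524. Paw Merkel against paw IFE called 1920 genes with no filter beyond 1 count, 2227 by DESeq2 and 537 with only the 4 paw libraries. Back Merkel against back IFE called 3963 by DESeq2. Paw against back Merkel called 17 with library totals only, 452 with no filter, 512 by DESeq2, 12 and 13 on log2(FPKM + 0.1) and log2(FPKM + 1), 0 on FPKM without a filter and 5 with only the 4 libraries. Paw against back IFE called 120 with no filter, 84 by DESeq2, and 1 and 2 on the FPKM settings with a pseudocount of 0.1 and 1. The interaction called 1 with RLE size factors, 305 with no filter, 273 by DESeq2 and 2 on log2(FPKM + 1). Leaving out 1 library at a time gave 561 to 2369, 1307 to 3376, 1 to 177, 0 to 67 and 0 to 41 genes in these 5 comparisons, in the order given. Members called in those fits ranged from 4 to 5 in paw, from 5 to 5 in back skin, and from 0 to 1 in the interaction, where Ina was called without back IFE library 2. The causes of these shifts were not tested.

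With the replicate number as a block, no call on the members changed; paw against back IFE called 1 gene and the interaction 4. Whether equal numbers mark libraries from the same animals is not given in the labels. Deviations from group means correlated at -0.0427 to 0.0845 over 6 pairs of groups. These values give no sign of pairing. They do not exclude it, because the size of any shared effect beside the noise of a library is not known. With 2 libraries a group, differences within the spread of a pair were not detectable at this depth.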
